A study of Mus musculus with 12 samples.

Results

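Genes of inflammatory cytokines and their brakes, with the nitric oxide synthase gene Nos2, were followed through every cell class of a set of mouse tumours. The 10 genes were Il1a, Il1b, Il1rn, Il1r2, Tnf, Nos2, Il6, Il12b, Il18 and Il33. They were chosen by name and matched to the gene symbols of the count tables, where they were 10 of the 32285 genes. The study compared tumours of control lines with tumours of lines whose Mif gene was knocked out (KO). The product of Mif, macrophage migration inhibitory factor, is itself a cytokine. The series title concerns the rejection of melanoma, and the labels name the parental cells SCC35.

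The control group held control lines 15 and 18, and the KO group held KO lines 19 and 24, so that each line belonged to 1 group. Each hashtag, an antibody tag that marks the cells of 1 sample, stood for a line on day 0, 6, 10 or 16 and had its own letter. There were 21 control hashtags (11 of line 15 and 10 of line 18), 21 KO hashtags (11 of line 19 and 10 of line 24) and 3 hashtags called WT, which the labels put in no group. The labels name neither the strain, genotype, age or sex of the mice nor the way Mif was knocked out, and do not say whether a line is 1 clone, whether each hashtag is a separate animal or what material day 0 stands for. The p-values below therefore measure the spread between these hashtags, and cover these 4 lines and no others.

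Interleukin 1 alpha (Il1a) and beta (Il1b) signal through the same receptor and start fever, neutrophil entry and further cytokine release. Il1rn encodes the antagonist that occupies this receptor without signalling, and Il1r2 encodes a decoy receptor that binds the ligands and does not signal. Tnf encodes tumour necrosis factor, Il6 a cytokine of the acute phase response, and Il12b the subunit that interleukins 12 and 23 share. Il18 and Il33 encode interleukin 1 family members that are made by epithelial and stromal cells as well as by leukocytes. The Nos2 enzyme makes nitric oxide from arginine in activated myeloid cells. NF-kB, a family of transcription factors, is a common inducer of these genes, and the inflammasome cleaves the precursors of interleukins 1 beta and 18, so that an RNA level does not measure the secreted protein.

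The 6 libraries, 4 of a single line and 2 with several lines, held 176381 barcodes. After filtering 163866 cells remained, and a hashtag could be given to 100459. A hashtag held 224 to 4578 cells and 1975214 to 27576694 UMIs (unique molecular identifiers, each standing for 1 captured RNA molecule). The median UMIs of assigned cells ran from 3133 in the library of line 24 to 8306 in that of line 15, and 15834 barcodes occurred in at least 2 libraries. Mif in line cells was 1778 to 3138 CPM (counts scaled to 1000000 UMIs of the class) in control hashtags and 38.3 to 725 CPM in KO hashtags, without overlap. In the mixed library, line cells of the 3 hashtags of KO line 19 held 241 to 252 CPM of Mif, above the other hashtags of that line.

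Cells were put in classes by 8 marker genes per class, none of them among the 10 genes. Line cells were those with no UMI of Ptprc, the pan-leukocyte gene, and fewer than 3 markers of every class. They numbered 63535, of which 5213 were from day 0, and they carried little of the melanocytic genes, with 14.1 CPM of Mitf, 0.490 CPM of Sox10 and 0.149 CPM of Pmel, and no UMI of Tyr. The main leukocyte classes were 10053 C1q macrophages, 3160 T cells and 2550 monocytes. Smaller classes were 844 osteoclast-like cells, 630 fibroblasts, 408 NK cells, 352 endothelial cells and 287 neutrophils. Of 6338 cells past the gate for mature dendritic cells only 248 (3.91%) held a Ptprc UMI and 627 came from day 0. Levels of that class are therefore given for the cells with a Ptprc UMI, a choice made after seeing the data.

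Il1rn, Il1a and Il1b lie on chromosome 2, with Il1rn at 24336853 to 24351494 (plus strand), Il1a at 129299610 to 129309972 and Il1b at 129364570 to 129371139 (both minus strand), in GENCODE M21 on GRCm38. Il1r2 lies on chromosome 1 at 40074079 to 40125231 and Il6 on chromosome 5 at 30013114 to 30019981. Nos2 (78920787 to 78960254) and Il12b (44400063 to 44414033) are on chromosome 11. Il18 is on chromosome 9 at 50554827 to 50581840, Tnf on chromosome 17 at 35199381 to 35202007 and Il33 on chromosome 19 at 29925114 to 29960718.

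RefSeq start sites were found for 9 of the 10 genes (GRCm38.p6), all but Nos2. Of these, 3 held a match to an NF-kB motif (GGGA, any pair of bases, then TTCC) or an AP-1 motif, TGANTCA, searched on both strands in the 250 bases before the start. They are printed 5′ to 3′ on the gene's strand, beside that of Il1b, because Il1a and Il1b were called in KO macrophages, Il1rn in KO monocytes and Il6 in KO line cells. Capitals mark the matches. The windows are chr5:30012864-30013113 (Il6, plus strand), chr2:129309973-129310222 (Il1a, minus strand), chr2:24336610-24336859 (Il1rn, plus strand) and chr2:129371140-129371389 (Il1b, minus strand).
Il6: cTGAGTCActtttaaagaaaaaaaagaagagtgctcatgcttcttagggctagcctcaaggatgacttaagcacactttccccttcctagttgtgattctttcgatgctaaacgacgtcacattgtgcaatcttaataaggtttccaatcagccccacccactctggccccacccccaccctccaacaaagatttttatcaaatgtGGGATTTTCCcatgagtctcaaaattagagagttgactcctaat
Il1a: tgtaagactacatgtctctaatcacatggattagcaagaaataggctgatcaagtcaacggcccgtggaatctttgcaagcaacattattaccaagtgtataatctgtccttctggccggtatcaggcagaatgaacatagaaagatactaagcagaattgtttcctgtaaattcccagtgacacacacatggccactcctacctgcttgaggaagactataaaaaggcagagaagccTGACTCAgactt
Il1rn: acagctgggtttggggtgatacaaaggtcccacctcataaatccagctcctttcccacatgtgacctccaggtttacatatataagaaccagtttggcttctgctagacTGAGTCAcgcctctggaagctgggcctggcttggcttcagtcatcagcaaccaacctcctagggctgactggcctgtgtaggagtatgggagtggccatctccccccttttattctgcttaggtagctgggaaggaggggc
Il1b: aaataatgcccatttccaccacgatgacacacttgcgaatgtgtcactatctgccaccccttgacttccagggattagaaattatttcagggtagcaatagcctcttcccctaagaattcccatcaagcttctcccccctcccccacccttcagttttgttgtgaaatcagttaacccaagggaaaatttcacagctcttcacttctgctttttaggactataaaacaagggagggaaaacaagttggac
The Il6 window held GGGATTTTCC at -44 and TGAGTCA at -249, counted from the start site. The Il1a window held TGACTCA at -12 and that printed for Il1rn held TGAGTCA at -141, while that of Il1b held neither motif. Windows of other Il1rn start sites, chr2:24345041-24345290 and chr2:24345121-24345370, held neither motif. Which start site these cells used was not tested. Of 32851 windows of 300 bases in the same table, 482 (1.47%) held the NF-kB motif and 2565 (7.81%) the AP-1 motif. The 2 matches in the Il6 window do not overlap. A match describes letters and not a bound site.

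Levels by class are given for days 6 to 16 as CPM of the UMIs summed over a class, WT hashtags included, with an interval for counting error at 95%. Among classes of at least 200 cells, Il1b was highest in neutrophils at 3688 CPM (3509 to 3874), then in monocytes at 2428 CPM (2387 to 2469), C1q macrophages at 1139 CPM (1128 to 1150.5) and mature dendritic cells at 547 CPM (509 to 587). These neighbours did not overlap in counting error, but line 15 carried the lead of neutrophils. Without that line Il1b was 2278 CPM (2099.7 to 2468) in neutrophils and 2117 CPM (2074 to 2162) in monocytes, which overlapped. In 38 type 2 conventional dendritic cells, a class under that size, Il1b was 3120 CPM. A UMI of Il1b was found in 83.5% of neutrophils, 75.7% of monocytes and 59.3% of C1q macrophages, against 3.69% of line cells of at least 4000 UMIs, although neutrophils were the shallowest class, with a median of 729 UMIs. Macrophages, the largest class of the 4, held 41.6% of all Il1b UMIs and 6.10% of all UMIs.

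Il1a followed a steeper order, with 142 CPM (108 to 182) in neutrophils, 13.3 CPM in monocytes and 10.8 CPM in macrophages, the last 2 overlapping in counting error. Without line 15 it was 83.4 CPM (52.3 to 126) in neutrophils, and without line 24 6.95 CPM in macrophages. No Il1a UMI was seen in mature dendritic cells, where 3 UMIs would have been 2.10 CPM. The brakes had the same leading classes as Il1b. Il1rn reached 833 CPM in neutrophils, 545 CPM in monocytes and 345 CPM in macrophages, and macrophages held 53.4% of its UMIs.

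Il1r2, the decoy receptor, was 945 CPM in neutrophils, 169 CPM in monocytes, 129 CPM in mature dendritic cells and 70.6 CPM in macrophages. Without line 15 these levels were 428, 139, 74.6 and 70.0 CPM, and the last 2 overlapped in counting error. T cells held 62.9 CPM of Il1r2, or 89.0% of the macrophage level, while the summed C1q macrophage markers in T cells were 0.695% of theirs in macrophages. Within T cells, Il1r2 was 104 CPM (76.9 to 137) in those with a UMI of Foxp3, called regulatory, and 9.90 CPM (6.46 to 14.5) in CD8 T cells. Without line 15 the regulatory level was 67.4 CPM (44.0 to 98.7). Most Il1r2 UMIs of T cells were in T cells of neither subset. Fibroblasts held 20.2 CPM of Il1r2, 28.6% of the macrophage level, with the C1q markers at 1.21%.

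Tnf was 597 CPM in neutrophils, 124 CPM in monocytes and 89.9 CPM in macrophages, followed by T cells (30.1 CPM), osteoclast-like cells (15.96 CPM) and mature dendritic cells (14.7 CPM), the last 2 overlapping. Nos2 had another order. It was highest in endothelial cells at 27.9 CPM (21.0 to 36.4), with 54 UMIs in 352 cells, then in monocytes (17.3 CPM, 14.0 to 21.1), macrophages (13.7 CPM, 12.5 to 14.9) and fibroblasts (7.35 CPM). The intervals of endothelial cells and monocytes overlapped at their edges, and those of monocytes and macrophages overlapped too. Neutrophils held no Nos2 UMI, which allows up to 8.56 CPM by the exact interval, and mature dendritic cells held none, which allows up to 2.58 CPM.

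Il12b was highest in dendritic cells, with 275 CPM (248 to 303) in mature dendritic cells and 75.7 CPM in 93 type 1 conventional dendritic cells, against 1.14 CPM in macrophages. Without line 24 the levels were 171 CPM (148 to 196) in mature dendritic cells and 0.506 CPM in macrophages. Mature dendritic cells held 24.5% of the Il12b UMIs, but 56.9% were in cells past a dendritic gate without a Ptprc UMI, at 12.7 CPM. No Il12b UMI was seen in neutrophils, T cells, NK cells, fibroblasts, endothelial cells or osteoclast-like cells.

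Il6, Il33 and Il18 were genes of non-leukocytes as well. Endothelial cells held 49.7 CPM (40.2 to 60.6) of Il6 and fibroblasts 40.6 CPM (35.2 to 46.7), which overlapped, against 4.85 CPM in monocytes, 3.69 CPM in line cells of at least 4000 UMIs and 1.76 CPM in macrophages (0.674 CPM without line 24). Il33 was 158 CPM (147 to 170) in fibroblasts, with a UMI in 32.8% of these cells. It was 9.002 CPM in line cells of at least 4000 UMIs and 19.2 CPM in those of 2000 to 4000 UMIs. Mature dendritic cells held 8.39 CPM. T cells, monocytes, neutrophils, macrophages, NK cells, endothelial cells and osteoclast-like cells held less. Il18 was 56.1 CPM in monocytes, 22.2 CPM in macrophages and 9.73 CPM in line cells of at least 4000 UMIs. Because line cells made up 66.0% of all UMIs, they held 61.7% of the Il6 UMIs, 62.0% of those of Il33 and 62.7% of those of Il18, shares just below their part of the whole.

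**Figure D1:**
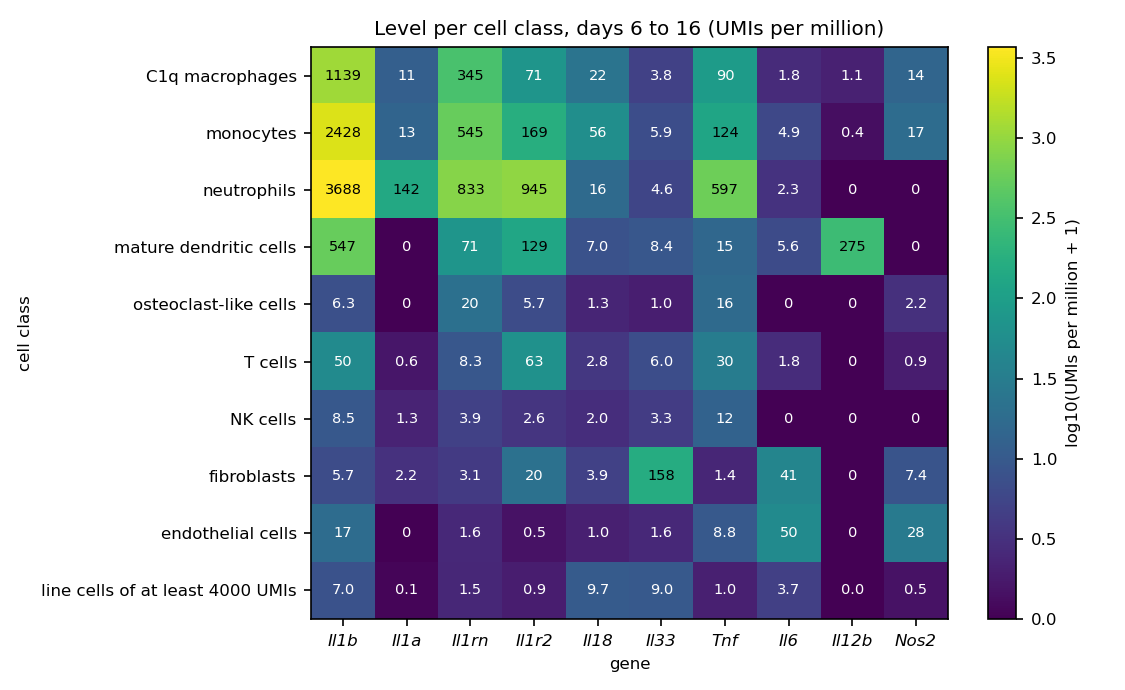
Levels of the 10 genes in 10 cell classes on days 6 to 16. Each cell of the heat map prints the summed level of a gene in CPM (column) in a class (row), and the colour shows the same value as log10(value + 1). Il1b, Il1rn, Il1r2, Tnf and Il1a are highest in neutrophils, Il12b in mature dendritic cells, Il33 in fibroblasts and Il18 in monocytes.

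The level of Il1b in line cells depended on the depth of the cell. It was 843 CPM in line cells under 1000 UMIs and fell with depth to 3.73 CPM in those of 8000 UMIs or more, whereas Il18 moved from 17.9 to 7.47 CPM over the same range. For this reason levels of line cells are those of cells with at least 4000 UMIs, a choice also made after seeing the data. In these cells Il1b was still 0.611% of its macrophage level and Tnf 1.16%, while the summed C1q macrophage markers were at 0.186%. The part of free RNA in these low levels was not tested.

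Differences between classes were tested over hashtags, with each hashtag as a block. In monocytes against macrophages (31 hashtags, 2 of them WT, 38.4% of genes called), Il1b was higher by 1.12 on the log2 scale (SE 0.12, adjusted p = 5.4e-12), Il1r2 by 1.33 (5.8e-11), Il18 by 1.24 (2.1e-12) and Il1rn by 0.27 (0.014), all in edgeR's quasi-likelihood test. Tnf (0.07), Nos2 (-0.11), Il1a (0.35) and Il33 (0.37) did not pass, and the interval for Tnf ran from -0.15 to 0.29. Thus 4 of 8 tested genes were higher in monocytes and none was lower.

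Neutrophils reached 20 cells in 3 hashtags, all of control line 15 on day 6. Their Tnf was 1099 to 1790 CPM, against 241 to 657 CPM in the 4 control hashtags of days 10 and 16 with at least 10 neutrophils. The day 6 hashtags of KO line 19 with at least 10 neutrophils held 600 and 203 CPM of Tnf. In the 3 hashtags of line 15 (13.7% of genes called) Il1a was above macrophages by 6.93 on the log2 scale, Il1r2 by 5.27, Tnf by 3.72, Il1b by 2.28 and Il1rn by 2.02, with edgeR adjusted p of 9.3e-05 or less. With hashtags of at least 10 neutrophils (9 hashtags, 20.6% of genes called) the same 5 genes passed with smaller differences, 4.47, 3.96, 2.21, 1.52 and 0.97. Pooled Il1b in neutrophils was 5916 CPM in line 15, against 2145, 2593 and 1813 CPM in lines 18, 19 and 24, and the counting intervals of the last 3 overlapped. No test between lines was run. Against monocytes, Il1a, Il1r2, Tnf and Il1rn passed in the 3 hashtags (13.8% of genes called) and Il1b did not (log2 1.17, edgeR adjusted p = 0.057).

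Over all cells past the mature dendritic gate (36 hashtags, 3 of them WT, 78.7% of genes called) 3 of the 10 genes were above macrophages, Il12b (5.34), Il33 (1.21) and Il6 (1.12), and the other 7 were lower. Cells of that gate with a Ptprc UMI reached 10 cells in 7 hashtags, 6 of KO lines and 1 WT with no Il12b UMI, so that no control hashtag enters this test. Il12b was above macrophages by 6.90 on the log2 scale (edgeR adjusted p = 4.8e-07, 24.2% of genes called), while Il1b (-1.33), Il1rn (-2.57) and Tnf (-2.74) were lower and Il1r2 (0.47) did not pass. The Il12b level varied between lines, with 79.6 CPM in line 15, 276 CPM in line 18, 237 CPM in line 19 and 748 CPM in line 24. The 24 cells of the WT hashtags held no Il12b UMI among 181472 UMIs, which allows up to 20.3 CPM by the exact interval. A UMI of Il12b was found in 21.5% of all mature dendritic cells of days 6 to 16.

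KO and control were compared first in C1q macrophages, where Il1b was called higher in the KO group. Il1b ran from 671 through a median of 1289 to 2614 CPM in 17 KO hashtags and from 272 through 806 to 2165 CPM in 18 control hashtags. The KO values were above the control median in 14 of 17 hashtags, and 3 exceeded every control, so the groups overlapped. Il1b was higher by 0.87 on the log2 scale (SE 0.23, edgeR adjusted p = 0.0041), where 33.6% of all genes tested were called.

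Il1a ran from 0 through 13.1 to 40.0 CPM in KO macrophages and from 0 through 3.45 to 35.3 CPM in control macrophages. The KO hashtags were above the control median in 13 of 17 and above every control in 2. The difference was 1.72 on the log2 scale (SE 0.38, edgeR adjusted p = 0.00066). Of the 10 genes, 7 had enough counts to be tested in macrophages. These 2 were called, both higher, a share no larger than the 33.6% of all genes.

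The 3 WT hashtags, in no group and with 1277 to 1460 CPM of Mif in macrophages, held 1385 to 1659 CPM of Il1b and 8.22 to 20.4 CPM of Il1a. These values were above both control medians and within the ranges of both the KO and the control hashtags.

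Both ligands stood highest in line 24. The mean of Il1b over hashtags of days 6 to 16 was 1004 CPM in control line 15 and 698 CPM in control line 18, against 1135 CPM in KO line 19 and 1937 CPM in KO line 24. For Il1a the means were 3.91 and 6.57 CPM in the control lines and 9.47 and 23.9 CPM in the KO lines. Without KO line 24, Il1b no longer passed (log2 0.47, adjusted p = 0.30) and Il1a had too few counts to be tested. With the sums of each line as the sample, 2 against 2, neither passed (adjusted p = 0.19 for Il1b and 0.16 for Il1a, edgeR).

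In the mixed library that held KO line 19 and control line 15, Il1b was lower in line 19 on each of the 3 days, with 671 against 1051 CPM on day 6, 705 against 709.5 CPM on day 10 and 778 against 825 CPM on day 16. In the other, Il1b was higher in KO line 24 than in control line 18, with 1024 against 288 CPM on day 6 and 2018 against 855 CPM on day 10. KO line 24 thus lay above the control line beside it. KO line 19 lay below its control on day 6 and close to it on days 10 and 16. Control line 18 on day 16, in the same library as line 19, held 793 CPM. In the mixed libraries alone Il1b was higher by 0.66 (edgeR adjusted p = 0.21) and Il1a by 1.39 (0.083). With the library as a term over all hashtags neither passed (0.47, 0.52 for Il1b and 1.15, 0.32 for Il1a), nor with library and day as a block over the 11 hashtags of mixed libraries and days that held both groups (0.42, 0.42 and 1.49, 0.16, edgeR). The summed neutrophil markers in macrophages were 64.4 CPM (median, range 20.8 to 104) in KO and 33.3 CPM (18.3 to 110) in control hashtags, and the monocyte markers 380 and 337 CPM. The T cell markers were 19.996 CPM in KO and 3.63 CPM in control hashtags, and the C1q markers of the class itself 8818 and 10683 CPM. Their part in the difference was not tested.

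The brakes and Tnf in macrophages did not pass. Il1rn ran from 240 through 356 to 595 CPM in KO and from 195 through 348 to 587 CPM in control hashtags, nearly the same range (log2 0.21, interval -0.06 to 0.47, edgeR adjusted p = 0.24). Il1r2 ran from 5.26 through 83.4 to 194 CPM in KO and from 10.8 through 54.7 to 114 CPM in control hashtags (0.64, adjusted p = 0.085). Of the KO hashtags 6 exceeded every control and 2 lay below every control, and the line means were 70.3, 39.8, 49.2 and 114 CPM in lines 15, 18, 19 and 24. Il1r2 passed without KO line 19 (1.19, edgeR adjusted p = 0.00071) and without control line 15 (1.20, 0.026), and was -0.16 without KO line 24.

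Tnf ran from 36.8 through 91.7 to 208 CPM in KO and from 46.3 through 84.2 to 161 CPM in control macrophages (log2 0.11, interval -0.19 to 0.41, edgeR adjusted p = 0.61). Nos2 ran from 0 through 10.5 to 142 CPM in KO and from 0 through 6.46 to 87.6 CPM in control hashtags (0.87, interval -0.23 to 1.97, adjusted p = 0.24). The highest control value was that of a day 10 hashtag of line 18, letter A, which also had the highest control levels of Il1a and Il1b. Without the day 10 hashtags of that line's own library, a setting chosen after seeing the data, Nos2 was 1.82 (edgeR adjusted p = 0.0013), and without control line 18 it was 1.47 (0.023). Without control line 15 it was 0.51 (0.67), and without KO line 24 it had too few counts to be tested.

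**Figure D2:**
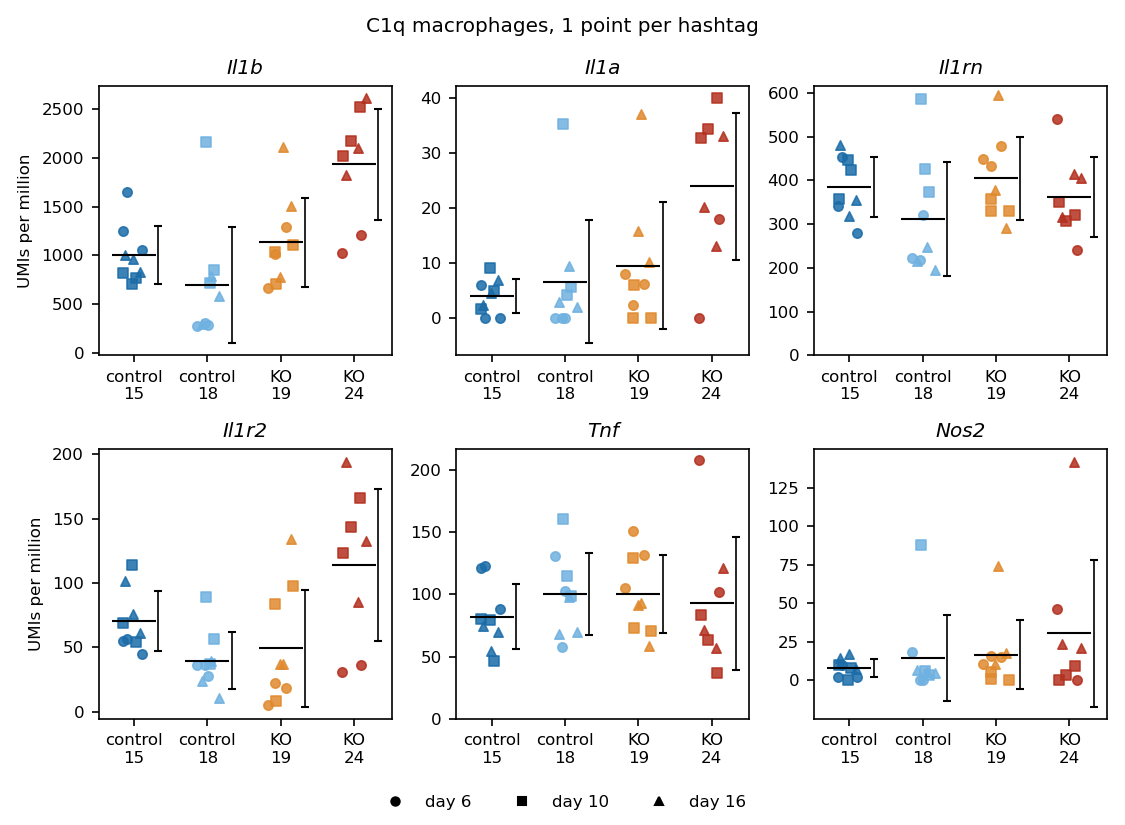
Il1b, Il1a, Il1rn, Il1r2, Tnf and Nos2 in C1q macrophages by line, in CPM. Points are hashtags (circle day 6, square day 10, triangle day 16), bars the line means and whiskers their SD. Il1b and Il1a are highest in KO line 24, with means of 1937 and 23.9 CPM, and a day 10 hashtag of control line 18 stands at 2165 CPM of Il1b.

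Il18 in macrophages was 11.1 through 19.8 to 38.5 CPM in KO and 14.5 through 20.5 to 44.4 CPM in control hashtags (log2 -0.06, interval -0.36 to 0.23). Il6, Il12b and Il33 were too sparse in macrophages for the count filter. Il6 gave 48 UMIs in KO and 14 in control macrophages, and 9 of 17 KO hashtags were above every control, but 43 of the 48 KO UMIs were from line 24. Il12b gave 30 and 3 UMIs, with 26 of the 30 from line 24. No difference is read from these counts.

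Genes around these cytokines, in 7 lists, were called in both directions in KO macrophages, where 33.6% of all genes tested were called and their median log2 difference was 0.01. The list differences are from the fit over all 4 lines. Over all genes the calls fell from 2451 to 724 without KO line 24, 431 with the library as a term and 3 with 1 sum per line. Of 15 NF-kB subunits and feedback genes, all tested, 4 were higher and 1 was lower (median 0.08), a share near that of all genes. Nfkb1, an NF-kB subunit, was 175 ± 42.8 CPM (SD, n = 17) in KO and 92.2 ± 22.2 CPM (SD, n = 18) in control hashtags (log2 1.04, edgeR adjusted p = 3.4e-08), with line means of 95.6, 88.8, 144 and 210 CPM in lines 15, 18, 19 and 24. Rel, another subunit (1.05, 1.1e-05), Tnfaip3, a deubiquitinase that damps NF-kB (1.03, 4.5e-07), and Zc3h12a, an RNase that degrades cytokine RNA (0.54, 0.0099), were also higher. Zfp36, which speeds the decay of Tnf RNA, was lower, at 704 ± 142 against 1124 ± 471 CPM (-0.56, edgeR adjusted p = 0.00042).

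Of 13 inflammasome and processing genes, 10 were tested, 2 were higher and 3 lower (median -0.17). Nlrp3, an inflammasome sensor, was 169 ± 60.9 CPM in KO (n = 17) and 86.3 ± 42.4 CPM in control macrophages (n = 18; log2 1.15, edgeR adjusted p = 0.00010). Casp4 was higher by 0.36, and Card9 (-1.01), Gsdmd, the pore-forming gasdermin D (-0.37), and Casp8 (-0.22) were lower. Of 17 receptors and regulators of the interleukin 1 family, 8 were tested and 3 were higher (median 0.13): Il1rl1, which encodes the receptor of interleukin 33 (1.40), Il18bp, which encodes the binding protein that blocks interleukin 18 (1.08), and Il18rap, a subunit of the interleukin 18 receptor (0.93).

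Of 14 receptors and signalling genes of Tnf and Il6, 13 were tested, 5 were higher and 2 lower (median 0.06), among them Tnfrsf1b, the second receptor of Tnf (0.55), and Socs3, an inhibitor of Il6 signalling (-0.32). Of 11 arginine and nitric oxide genes, 6 were tested and 2 were higher, Acod1, which makes itaconate and acts in neither pathway (1.03, edgeR adjusted p = 0.045), and Odc1 (0.30, 0.023). Of 14 other inflammatory outputs 12 were tested, 5 were higher and 1 lower (median 0.41), with the neutrophil chemokines Cxcl1 (0.69) and Cxcl2 (0.55) higher and Tnfsf9 (-0.95) lower. Of 10 genes of the interleukin 12 family, 2 were tested and neither was called.

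In monocytes the antagonist gene Il1rn was called higher in the KO group in the fit over all lines, and Il1b was not. The call did not hold when any line was left out, and Il1a had too few counts to be tested. Il1rn ran from 145 through 626 to 874 CPM in 13 KO hashtags and from 90.7 through 398 to 613 CPM in 16 control hashtags. Of the KO hashtags 7 exceeded every control and the groups overlapped. The difference was 0.60 on the log2 scale (SE 0.19, edgeR adjusted p = 0.025), where 19.1% of all genes tested were called and Il1rn was the only 1 of 4 tested members to pass. The line means were 434 and 349 CPM in control lines 15 and 18 and 631 and 540 CPM in KO lines 19 and 24.

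The Il1rn call was lost without each line in turn (log2 0.42 to 0.77, adjusted p from 0.052 to 0.29), in the mixed libraries alone (0.49, 0.43), with the library as a term (0.78, 0.30), with library and day as a block (0.45, 0.61) and with 1 sum per line (0.72, 0.37, edgeR). With a stricter gate Il1rn was higher by 0.80 (edgeR adjusted p = 0.0015). The summed neutrophil markers in monocytes were 84.0 CPM in KO and 165 CPM in control hashtags (medians), and the C1q markers 622 and 863 CPM. The T cell markers were 51.1 CPM in KO and 2.94 CPM in control hashtags, and the monocyte markers of the class itself 6607 and 5252 CPM. Their part was not tested.

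Il1b in monocytes ran from 1008 through 1860 to 3779 CPM in KO and from 1120 through 2986 to 5526 CPM in control hashtags (log2 -0.36, interval -0.70 to -0.02, edgeR adjusted p = 0.15). The line means were 3495 CPM in control line 15, 2100 CPM in control line 18, 1851 CPM in KO line 19 and 2328 CPM in KO line 24, so both KO means lay among or below the controls. Il1b passed as lower with the stricter gate (-0.64, adjusted p = 0.027), without the count filter (-0.39, 0.031) and without control line 18 (-0.69, 0.0024), and was 0.12 without control line 15 (edgeR). Tnf (-0.03, interval -0.48 to 0.41) and Il1r2 (-0.43, interval -1.08 to 0.23) did not pass.

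**Figure D3:**
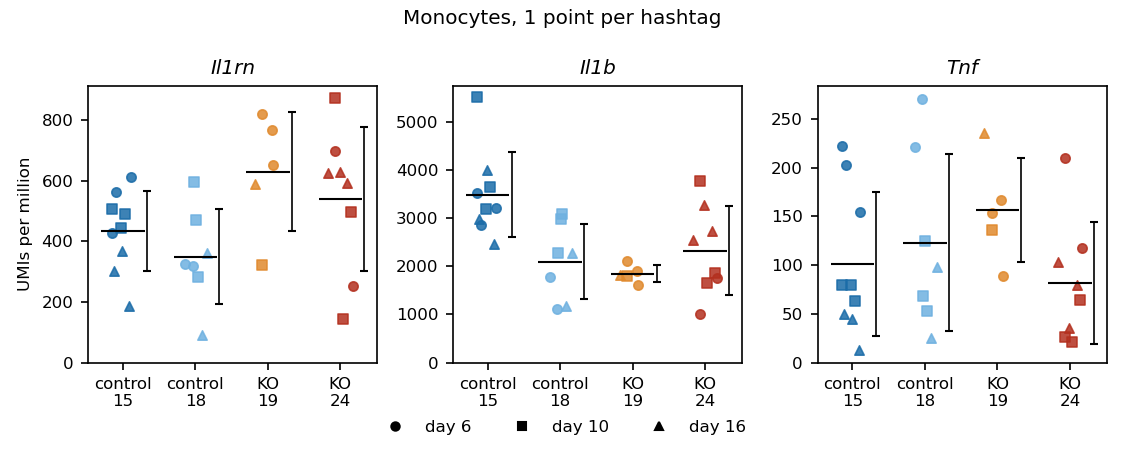
Il1rn, Il1b and Tnf in monocytes by line, in CPM. Points are hashtags (circle day 6, square day 10, triangle day 16), bars the line means and whiskers their SD. The Il1rn means are 631 and 540 CPM in the KO lines and 434 and 349 CPM in the control lines, and the Il1b mean is highest in control line 15 at 3495 CPM.

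In monocytes, where 19.1% of all genes were called, 14 genes of the NF-kB list were tested, of which 3 were higher and 1 lower, Rel (0.91), Nfkb1 (0.74), Tnfaip3 (0.69) and Zfp36 (-0.50), the same signs as in macrophages. Of 9 tested receptor and signalling genes of Tnf and Il6, 1 was higher, the kinase gene Jak1 (0.47). Of other outputs 10 were tested. Cxcl10 was higher (0.88), and Ccl3 (-0.83), the prostaglandin synthase gene Ptgs2 (-0.64) and Clec4e (-0.60) were lower. No gene of the interleukin 1 (2 tested), inflammasome (6) or arginine (4) lists passed at 0.05 in edgeR. Over all genes the monocyte calls fell from 447 to 3 without KO line 24 and 20 with the library as a term.

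In T cells (17 KO and 10 control hashtags, 6.63% of genes called) 2 genes were tested and both passed narrowly, Il1b on counts that came nearly all from KO hashtags. Il1r2 ran from 0 through 45.8 to 292 CPM in KO and from 0 through 101 to 532 CPM in control hashtags, with 2 KO hashtags above the control median. It was lower by 1.44 on the log2 scale (SE 0.43, edgeR adjusted p = 0.041), and the line means were 174, 149, 73.7 and 41.3 CPM in lines 15, 18, 19 and 24. Regulatory T cells, with more Il1r2 than CD8 T cells, were 15.6% and 14.6% of T cells in control lines 15 and 18. In KO lines 19 and 24 they were 5.46% and 3.51%. They held 49 of the 486 Il1r2 UMIs of T cells, and most of the others were in T cells of neither subset. Within regulatory T cells Il1r2 was 269 and 108 CPM in the control lines and 62.1 and 33.9 CPM in the KO lines, from 4 to 23 UMIs a line.

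Il1b in T cells gave 353 UMIs in KO and 5 in control hashtags, from 0 through 25.8 to 144 CPM against 0 through 3.39 to 18.7 CPM. Of the KO hashtags 12 of 17 were above every control (log2 3.25, SE 0.996, edgeR adjusted p = 0.044). With 5 UMIs in control hashtags, Il1b met the count filter through the KO hashtags alone, so no difference is read from this call. The WT hashtags of days 6, 10 and 16 held 18.6, 158 and 23.4 CPM of Il1b in T cells. Over all T cells, those of hashtags under 20 T cells included, the level in KO T cells (57.9 CPM) was 3.36% of that in KO macrophages, with the summed C1q markers at 0.863%, and in control T cells (8.38 CPM) 1.02% and 0.524%. The Il1b call was lost with the stricter gate (adjusted p = 0.22), with the other hashtag call (0.15) and without either control line (0.16 and 0.37). Without KO line 24 Il1b had too few counts to be tested. The Il1r2 call was lost without KO line 24 (-1.02, 0.38), without either control line (0.18 and 0.065) and in DESeq2 (0.12). With 1 sum per line neither passed (0.48 and 0.27, edgeR). With the library as a term neither passed either (Il1b 1.78, Il1r2 -1.23, adjusted p = 0.80 for both), and 0 of 3495 genes were called, with 284 at an unadjusted p under 0.05 in edgeR. With library and day as a block Il1r2 was -0.71 (0.83) and Il1b had too few counts to be tested.

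In line cells Il6 was higher in KO line 24 than in the other 3 lines. Over all line cells and days (42 hashtags, 49.0% of genes called), Il6 was higher by 1.41 (SE 0.37, edgeR adjusted p = 0.0020) and Il18 by 0.44 (SE 0.17, 0.031), 2 of 9 tested members. In line cells of at least 4000 UMIs (48.3% of genes called) Il6 (1.38, 0.0032) and Il18 (0.49, 0.018) were again higher, and Nos2 (1.70, 0.033) and Il1b (0.84, 0.045) passed as well. Over all line cells neither of these did (Nos2 1.20, 0.12, and Il1b 0.92, 0.081). Nos2 had too few counts to be tested over all line cells without KO line 24, so no difference is read from its call. In the deeper line cells the summed markers had higher medians in KO than in control hashtags for C1q macrophages (28.4 and 20.4 CPM), monocytes (15.4 and 12.4 CPM) and T cells (8.76 and 2.36 CPM), and a lower one for neutrophils (0.631 and 1.12 CPM). Their part in these calls was not tested.

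Il6 in these deeper line cells, days 6 to 16, ran from 0.841 through 1.999 to 19.0 CPM in KO and from 0.975 through 2.23 to 4.63 CPM in control hashtags. The 8 KO hashtags above every control were the 8 of line 24, and the KO median lay below the control median. The line means were 3.15 and 2.05 CPM in control lines 15 and 18, 1.45 CPM in KO line 19 and 14.2 CPM in KO line 24. Without KO line 24 the direction turned, with Il6 lower in line 19 by 0.68 (adjusted p = 0.029), and without KO line 19 it was higher by 2.39 (7.2e-12, edgeR, all line cells).

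Il33, an alarmin kept in the nucleus, was also highest in line 24. It ran from 0.0718 through 3.13 to 55.5 CPM in KO and from 1.71 through 6.72 to 55.9 CPM in control hashtags, with line means of 11.7, 9.86, 1.64 and 30.1 CPM in lines 15, 18, 19 and 24. Over both KO lines Il33 did not pass (0.81, edgeR adjusted p = 0.19), and the 2 KO lines differed in direction: it was -2.29 without KO line 24 (3.9e-06) and 1.92 without KO line 19 (3.1e-06). In the mixed libraries Il33 was 1.19 to 3.13 CPM in KO line 19, 6.66 to 13.2 CPM in control line 15, 6.25 to 17.2 CPM in control line 18 and 18.9 to 31.6 CPM in KO line 24, without overlap between line 19 or line 24 and either control line.

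Il18 was 4.63 through 9.82 to 21.4 CPM in KO and 3.12 through 8.92 to 15.1 CPM in control hashtags, with 3 KO hashtags above every control and means of 9.23, 8.41, 7.32 and 15.7 CPM in lines 15, 18, 19 and 24. Without day 0 it no longer passed (0.29, edgeR adjusted p = 0.16), and it was -0.12 with the library as a term (0.84) and -0.14 with library and day as a block (0.88). Nos2 means were 0.213, 0.359 and 0.255 CPM in lines 15, 18 and 19 and 2.54 CPM in line 24, and those of Il1b 4.55, 8.13, 4.0 and 20.4 CPM. The control hashtag of line 18, letter A, on day 10, high in macrophage Nos2 and Il1b, also had the highest control levels of both in line cells.

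With 1 sum per line the difference in Il6 did not pass (1.26, edgeR adjusted p = 0.68), nor did it in the mixed libraries alone (1.42, 0.36), with the library as a term (0.43, 0.69) or with library and day as a block (0.18, 0.95). There Il6 was 7.69 to 19.0 CPM in KO line 24, 0.841 to 1.57 CPM in KO line 19 and 1.27 to 4.34 CPM in the control lines.

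**Figure D4:**
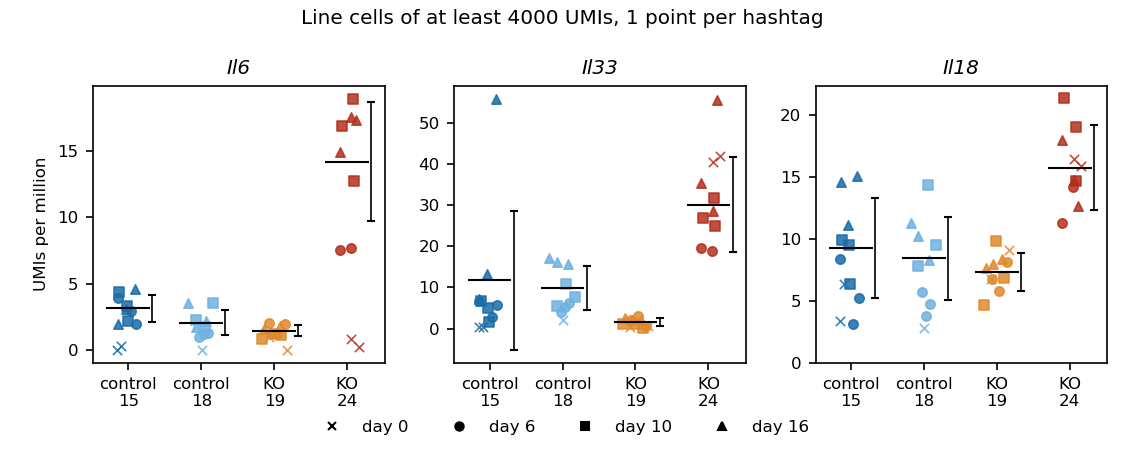
Il6, Il33 and Il18 in line cells of at least 4000 UMIs by line, in CPM. Crosses are day 0 hashtags, circles day 6, squares day 10 and triangles day 16, bars are means of days 6 to 16 and whiskers their SD. KO line 24 stands above the other lines for Il6 (mean 14.2 CPM) and KO line 19 is lowest for Il33 (mean 1.64 CPM).

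The related genes in line cells, from the fit over all line cells, are read beside the 49.0% of all genes that were called and their median of 0.01. Calls over all genes fell from 6275 to 1582 with the library as a term, 95 in the mixed libraries alone and 0 with 1 sum per line. All 15 NF-kB genes were tested, 9 were higher and none lower (median 0.44), with Tnfaip3 at 1.39 and Nfkb1 at 0.90. In cells of at least 4000 UMIs Tnfaip3 had line means of 29.0, 17.7, 32.1 and 106 CPM in lines 15, 18, 19 and 24, again highest in line 24. Of the interleukin 1 receptors and regulators 12 were tested and 6 were higher (median 0.23), among them Il18r1, the ligand-binding subunit of the interleukin 18 receptor (2.28, means of 0.602, 0.499, 3.92 and 1.04 CPM), which was highest in line 19.

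Of the Tnf and Il6 receptor and signalling genes, all 14 tested, 6 were higher and 3 lower (median 0.20). Il6st, the signal-transducing receptor of Il6, was higher (0.51), and Il6ra, its binding subunit (-0.23), Tnfrsf1a (-0.33) and Socs3 (-0.42) were lower. Of 10 inflammasome genes tested 2 were higher, among them Aim2, a sensor of DNA (1.93), and 1 was lower, Gsdmd (-0.31). Of 9 arginine genes 3 were higher, with Gch1, which makes a cofactor of nitric oxide synthases, at 1.05, and 1 lower. Of 12 other outputs 3 were higher and 1 was lower, Ptgs2 (-0.81). All 3 called genes of the interleukin 12 family (5 tested) were higher, but Stat4 and Il12rb2 had means of 1.20 CPM or less in each line.

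**Figure D5:**
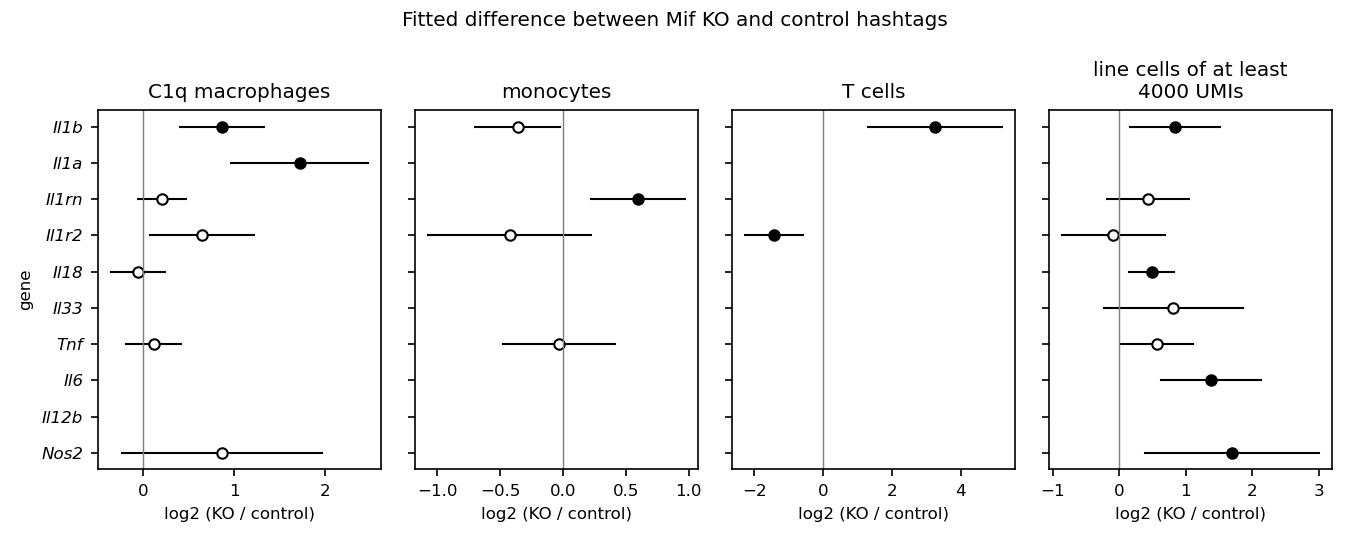
Log2 difference of KO from control for the tested genes in C1q macrophages, monocytes, T cells and line cells of at least 4000 UMIs, with unadjusted 95% intervals. Filled points passed an adjusted p of 0.05 in edgeR. Il1a and Il1b are to the right in macrophages, Il1rn in monocytes and Il6 in line cells.

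Fibroblasts, the class with the highest Il33, had 20 cells in 6 KO and 2 control hashtags. Of these controls 1 was the only hashtag of day 16, so with day as a term the comparison (0.12% of genes called, no member among them) rested on 1 control hashtag of line 18, and no difference is read from it. With at least 10 cells (26 hashtags, 13% of genes called) Il33 ran from 23.1 through 191 to 456 CPM in KO and from 0 through 44.3 to 347 CPM in control hashtags, a difference of 1.25 that did not pass (edgeR adjusted p = 0.084). The KO values were above the control median in 11 of 13 hashtags. The line means were 50.5, 158, 177 and 246 CPM in lines 15, 18, 19 and 24, and Il33 passed without control line 18 (1.75, edgeR adjusted p = 0.032) but was 0.47 without control line 15 (0.83).

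Among all cells past the mature dendritic gate (33 hashtags, 27.0% of genes called) Il12b (2.74, edgeR adjusted p = 0.011), Il1b (2.10, 0.012) and Il1rn (1.79, 0.031) were higher in KO, 3 of 7 tested. Most of these cells had no Ptprc UMI. Without KO line 24 none of the 3 passed (-0.29, -0.14 and 0.61), nor did any with the library as a term (1.91, 0.51 and 1.64, edgeR adjusted p of 0.246 or more) or with library and day as a block (1.504, 0.24 and 1.502, 0.679 or more).

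Summed over all cells of a tumour, where fewer cells of a class and less RNA per cell cannot be told apart, 47.5% of genes were called over 35 hashtags. Il6 was higher by 1.25 (edgeR adjusted p = 0.0028) and Il12b by 1.66 (0.0078), 2 of 10. Il12b ran from 0.144 through 2.53 to 24.7 CPM in KO and from 0.0552 through 1.16 to 5.83 CPM in control tumours, with line means of 1.75, 1.68, 1.88 and 10.0 CPM, the last that of KO line 24. Without this line neither passed (-0.36 and 0.09), nor did either with the library as a term (0.38 and 1.47, adjusted p = 0.59 and 0.20) or with library and day as a block (0.17 and 1.17, 0.91 and 0.62). Il1b (0.43), Il1rn (0.02), Il1r2 (0.00), Tnf (-0.18), Il33 (0.70) and Nos2 (0.46) did not pass in whole tumours. Without KO line 24 some were lower in line 19 than in the controls, namely Il1b (-1.20, edgeR adjusted p = 0.034), Il1rn (-1.06, 0.046), Il1r2 (-1.46, 0.0022), Tnf (-0.99, 0.019) and Il33 (-0.95, 0.0055). Macrophages were 7.12% of KO and 13.8% of control cells (means over hashtags, permutation p = 0.00076, two-sided), neutrophils 0.151% and 0.601% (0.00016), T cells 5.53% and 1.22% (6e-05) and monocytes 3.22% and 2.75% (0.66). By the same test mature dendritic cells with a Ptprc UMI were 0.326% and 0.189% (0.020) and fibroblasts 0.785% and 0.656% (0.38).

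Tnf was lower on day 16 than on day 6 in macrophages and monocytes. In macrophages Tnf fell from a median of 121 CPM on day 6 through 80.0 CPM on day 10 to 70.6 CPM on day 16 (log2 -0.58, SE 0.19, edgeR adjusted p = 0.049, 8.81% of genes called), 1 of 7 tested. In monocytes it fell from 185 through 66.2 to 50.2 CPM (-1.31, SE 0.27, adjusted p = 0.0061, 2.26% of genes called), 1 of 4 tested. The monocyte values overlapped between days, from 88.4 to 271 CPM on day 6 and from 13.3 to 236 CPM on day 16. The macrophage change did not pass without KO line 19 (0.17), without the count filter (0.084), by the other hashtag call (0.13) or by the stricter cell filter (0.068), and the monocyte change did not pass by the stricter gate (-1.67, 0.099). Neither change passed without control line 15 (edgeR adjusted p = 0.26 and 0.19) or in the mixed libraries alone (0.56 and 0.89).

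In line cells (20% of genes called) Il18 was higher on day 16 than on day 6 by 0.69 (SE 0.23, edgeR adjusted p = 0.030), and it was the only 1 of 9 members to pass. In the cells of at least 4000 UMIs its medians were 6.73, 5.79, 9.67 and 11.2 CPM on days 0, 6, 10 and 16. Without either control line it did not pass (0.28 and 0.27). Over all line cells Il18 was 4.65 to 8.33 on day 6 and 11.5 to 15.2 CPM on day 16 in control line 15. In control line 18 it was 4.23 to 6.64 and 10.6 to 13.2 CPM. In KO line 19 it was 6.30 to 8.16 and 7.83 to 8.23 CPM, and in KO line 24 10.6 to 16.6 and 12.3 to 15.3 CPM. Il33 medians were 0.650, 5.20, 6.16 and 15.9 CPM (1.63 over all line cells, 0.078), and Il33 passed without KO line 24 (1.39, 0.0044) and without KO line 19 (1.67, 0.0033, edgeR). In control line 18 Il33 went from 4.08 to 6.25 CPM on day 6 to 15.6 to 17.2 CPM on day 16, with no overlap.

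No member passed a test of whether the change from day 6 to day 16 differed between KO and control, in line cells (0.757% of genes called), macrophages (0.787%) or monocytes (0.574%), by edgeR at an adjusted p of 0.05. The smallest adjusted p was 0.20, for Tnf in monocytes, at a difference of 1.56 (interval 0.54 to 2.58). For Il18 in line cells the difference was -0.94 (interval -1.73 to -0.15, edgeR adjusted p = 0.35).

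Line cells of days 6 to 16 were also set against those of day 0 (7 hashtags), whose material the labels do not describe, with 45.3% of genes called over all line cells and 43.4% over those of at least 4000 UMIs. In the latter Il6 was higher after day 0 by 3.64 (edgeR adjusted p = 0.00019), Tnf by 2.87 (9e-05), Il1r2 by 2.20 (0.016), Il1b by 1.48 (0.025) and Il1rn by 1.32 (0.035). On day 0 Il6, Tnf and Il1r2 gave 9, 3 and 6 UMIs in 2252 such cells of the library of line 24. These 3 genes met the count filter through later hashtags, so no difference is read from their calls. Il6 was 0 to 0.945 CPM on day 0, below each later hashtag but 1. In line 24 it went from 0.203 and 0.827 CPM on day 0 to 7.54 and 7.69 CPM on day 6 and 12.7 to 19.0 CPM on day 10.

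Within the library of line 24, with each cell thinned to 4000 UMIs, Il6 was seen in 5 of 2252 day 0 cells (0.222%) and in 143 of 2882 later cells (4.96%). Il33 was seen in 8.66% and 8.71% of them, so in this line it was as frequent on day 0 as later. In the other lines Il33 was 0.290 to 2.11 CPM on day 0, against 40.5 and 41.9 CPM in line 24, and without line 24 the rise after day 0 was 3.43 (edgeR adjusted p = 0.00053, all line cells). Il1b in day 0 line cells of that library was seen in 2.71% after thinning, while 21 of the 28 day 0 C1q macrophages came from 1 hashtag of line 24.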

How the data were processed

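The 6 libraries held 5′ single-cell RNA of dissociated tumours, per the labels, with hashtag antibodies. Values are raw UMI counts of genes in cells, as deposited by the authors, made with Cell Ranger 6.0.0 on mm10 per the submitters' processing notes, and hashtag counts from the same cells. Cells were kept from 300 genes and up to 15% mitochondrial UMIs and assigned to hashtags with HTODemux (Seurat 5.3.0, quantile 0.99). Doublets between hashtags were removed by this call, and those within a hashtag remain. Hashtags under 0.1% of a library's hashtag counts were left out (47 in the sheet, 45 kept). Classes needed 3 of 8 markers and 2 more than the next class. Raw counts were summed per hashtag and class (at least 20 cells) and tested with edgeR 4.0.16 (filterByExpr, TMM, quasi-likelihood) in R 4.3.3, with group and day as terms, or hashtag and class for class contrasts. P-values were adjusted by Benjamini-Hochberg over all genes tested, at 0.05. Class shares were compared by a two-sided permutation test with 100000 resamples. Intervals on levels are exact Poisson intervals for counting error only. Alternatives included DESeq2 1.42.0, other hashtag calls, gates and filters, each line left out, the mixed libraries alone, the library as a term, library and day as a block, and 1 sum per line. The fits were tested on simulated data. The 10 genes and all lists were chosen with earlier results of these data known. The genes named from each list are at most 4 per direction, those with the smallest p. Promoters and start sites are from RefSeq on GRCm38.p6.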

Additional observations from a re-analysis of the deposited data

Results flagged for a closer look

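In 66 groups of 4 to 10 hashtags of the same class, group and day, a highest or lowest value that stood far from the rest was sought; chance gives about 1 in 20 such groups. In C1q macrophages of control day 10, 1 hashtag of line 18 (letter A, own library) stood apart for 3 genes, with 2165 CPM of Il1b, 35.3 CPM of Il1a and 87.6 CPM of Nos2 (n = 6 each). On control day 10, line 15 letter C had the highest Il18, 30.1 CPM, and on control day 6, line 15 letter A had the highest Il1a, 5.99 CPM, in the same class. In monocytes of KO day 10, line 24 letter A had 3779 CPM of Il1b (n = 4).

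The 3 WT hashtags were in no comparison between groups. In line cells of at least 4000 UMIs their lowest Il18 was 15.7 CPM, above every control hashtag of days 6 to 16 (highest 15.1 CPM). It was picked from 30 pairs of gene and class, and the difference was not tested.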

How the results depend on the processing

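Over the alternatives, counts of called genes stayed within 1.5 times in 95 values and moved further in 69, and of the values for the 10 genes 446 kept direction and side of the threshold, 94 lost the call, 21 gained it and 46 turned in direction. The cause was not tested in any case below. The labels do not say that letters pair hashtags, and letters A and B lie in libraries of 1 line, but letter C marks the mixed libraries, where hashtags of both groups shared a library and day. With that library and day as a replicate block (7 to 11 hashtags) called genes were 52 in line cells, 232 in macrophages, 10 in monocytes, 10 in T cells, 12 past the mature gate and 43 in whole tumours, and no call of the 10 genes was kept (Il1b in T cells had too few counts). With this block Il1b was -0.52, Il18 -0.14 and Il33 -0.44 in line cells and Il1r2 -0.70 in macrophages.

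Called genes in KO against control moved as follows. Line cells gave 6275, but 95 in the mixed libraries alone, 1582 with the library as a term and 0 with 1 sum per line (1274 at an unadjusted p under 0.05, edgeR). Macrophages gave 2451, but 302, 431 and 3 in these settings, and 1388 without control line 15 and 724 without KO line 24. Monocytes gave 447, but 27, 20 and 6, with 135 by the stricter gate, 285 without control line 15 and 3 without KO line 24. T cells gave 198, but 6, 0 (284 unadjusted, edgeR) and 0 (805), with 393 without the count filter, 76 by the stricter gate, 307 by the hashtag ratio call, 109 without control line 15 and 21 without KO line 24. Cells past the mature dendritic gate gave 2761, but 10, 480 and 0 (820 unadjusted, edgeR), with 2 by the stricter gate and 1557 without control line 15. Whole tumours gave 6522, but 160, 2374 and 0 (1342 unadjusted, edgeR). Fibroblasts gave 5, but 9 in DESeq2, 92 without the count filter, 124 by the ratio call, 3 without control line 15 and 366 with at least 10 cells (then 101, 362, 353 and 211 without lines 15, 18, 19 and 24).

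For day 16 against day 6, line cells gave 2567, but 1451, 752 and 4493 without lines 15, 18 and 24 and 0 in the mixed libraries (1771 unadjusted, edgeR). Macrophages gave 642, but 131 and 296 without lines 15 and 18 and 7 in the mixed libraries. Monocytes gave 53, but 123 without the count filter, 7 and 24 without lines 15 and 19, 0 by the stricter gate (284 unadjusted, edgeR), 15 by the ratio call, 33 by the stricter cell filter and 0 in the mixed libraries (149). The difference between groups in line cells gave 97, but 52 in cells of at least 4000 UMIs. Neutrophils against macrophages gave 423, but 241 in DESeq2 and, with at least 10 cells, 1004 (865 with RLE scaling), and against monocytes 213, but 502 (442). The mature gate against macrophages gave 8399, but 3976 by the stricter gate and 834 with a Ptprc UMI (842 with RLE scaling, 786 without the WT hashtag).

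Without each line in turn, called genes ran from 4545 to 7720 in line cells, 724 to 2925 in macrophages, 3 to 510 in monocytes, 21 to 263 in T cells, 3 to 4 in fibroblasts, 1557 to 2786 past the mature gate and 4563 to 8392 in whole tumours. They ran from 752 to 4493, 131 to 854 and 7 to 57 for day 16 against day 6 in line cells, macrophages and monocytes, and from 5430 to 5890 against day 0. In line cells Il6 ran from -0.68 to 2.39 on the log2 scale, Il18 from -0.090 to 0.91, Il33 from -2.29 to 1.92, Il1b from -0.98 to 1.84 and Nos2 from 0.75 to 2.11. In macrophages Il1a ran from 1.52 to 2.15 (without lines 15, 18 and 19), Il1b from 0.47 to 1.31, Il1r2 from -0.16 to 1.20, Il1rn from 0.03 to 0.39, Tnf from -0.047 to 0.30, Il18 from -0.19 to 0.045 and Nos2 from 0.51 to 1.47. In monocytes Il1rn ran from 0.42 to 0.77, Il1b from -0.69 to 0.12, Il1r2 from -1.32 to 0.43 and Tnf from -0.26 to 0.060. In T cells Il1r2 ran from -1.95 to -1.02 and Il1b from 2.42 to 4.67. Past the mature gate Il12b ran from -0.29 to 4.67, Il1b from -0.14 to 3.85 and Il1rn from 0.61 to 3.99, in whole tumours Il6 from -0.36 to 2.11 and Il12b from 0.09 to 2.53, and in fibroblasts Il33 from -0.61 to -0.35 and Il6 from -1.29 to -0.99, where 1 control hashtag carries every value. Against day 0 Il33 ran from -0.35 to 3.43.

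Directions also turned outside these ranges. With the library as a term Il1b was -0.40, Il18 -0.12 and Il33 -0.35 in line cells, and Il1r2 -0.19 and Il18 0.052 in macrophages. Il18 in macrophages was 0.037 by the stricter gate, 0.020 in the mixed libraries and 0.064 with monocytes joined. Tnf in monocytes was 0.0062 in DESeq2, 0.030 without the count filter, 0.16 by the stricter gate, 0.17 with 1 sum per line, 0.060 and 0.047 without lines 18 and 19 and 0.0094 without the day 10 hashtags of line 18. Il33 in fibroblasts was 0.29 by the ratio call, 0.48 with 1 sum per line and 1.25 with at least 10 cells (0.47, 1.75, 1.43 and 1.26 without lines 15, 18, 19 and 24), where Il6 without line 24 was 0.35. Tnf in monocytes against macrophages was -0.042 by the stricter gate. Il18 in neutrophils against macrophages was -0.46 with at least 10 cells (-0.15 with RLE scaling), and Il1r2 past the mature gate 0.47 with a Ptprc UMI (0.46 with RLE scaling, 0.82 without the WT hashtag).

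Without KO line 24 Il1a and Nos2 in macrophages and line cells and Il1b in T cells had too few counts to be tested, so their ranges cover the other 3 lines. Not run, for too few hashtags, were KO against control in neutrophils and endothelial cells, day 16 against day 6 in neutrophils, neutrophil contrasts by the stricter gate, and fibroblasts at 20 cells without line 18 or 19, by the stricter gate, in the mixed libraries or with the library as a term. Settings on hashtags of at least 10 cells, line cells of at least 4000 UMIs, a Ptprc UMI, class levels without each line, WT hashtags left out, library and day as a block, Ptprc-negative cells of the dendritic gates counted as line cells and the day 10 hashtags of line 18 were chosen after seeing the data.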

Other observations

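The 3 WT hashtags (days 6, 10 and 16) had macrophage Il1b of 1659, 1385 and 1504 CPM and Tnf of 215, 164 and 104 CPM. In line cells of at least 4000 UMIs their Il6 was 8.47, 4.14 and 9.89 CPM and their Il33 8.32, 2.16 and 22.6 CPM.

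Some classes of under 100 cells held high levels. In 36 pericytes, the mural cells of small vessels, Il6 was 182 CPM, with a UMI in 47.2% of cells. In 38 type 2 conventional dendritic cells Il1b was 3120 CPM and Il1r2 1285 CPM.

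Over 10 classes and 8821 genes, the gene most like each member in log2 level, by Pearson's r over class means, was Wfdc17 for Il1b (0.983), Hcar2, itself a neutrophil marker of the gate, for Il1a (0.978), Rasgrp4 for Il1rn (0.984), Cd80 for Il1r2 (0.931), Tmem164 for Tnf (0.951), Rab1a for Nos2 (0.946), Il6st for Il6 (0.989), Timd4 for Il12b (0.996), Mdm2 for Il18 (0.959) and Loxl1 for Il33 (0.987). These are descriptions over classes that share libraries.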
